A study of Mus musculus with 12 samples.

Results

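The enzymes and transporter that dispose of ammonia in the liver were followed through transcript abundance and ribosome occupancy in mice lacking METTL5, an enzyme that methylates an adenosine of 18S rRNA. The 10 genes were chosen by name from the deposited table of 10607 genes, as the urea cycle and ammonia handling enzymes of hepatocytes: Cps1, Nags, Otc, Slc25a15, Ass1, Asl, Arg1, Glul, Gls2 and Tat. All 10 were in the table, and all 10 passed the filter on low values. The livers came from 3 litters, each of which gave 1 wild-type (WT) and 1 Mettl5 knockout (KO) mouse. The KO mice carried a floxed exon 2 of Mettl5 that had been removed throughout the body by CMV-Cre (B6.C-Tg(CMV-cre)1Cgn/J), whereas the WT mice were their littermates. Both genotypes descended from a C57bl/6 x 129S6 hybrid that was backcrossed to B6. Loss of METTL5 was thus not limited to the liver. The labels give neither the age nor the sex of the 6 mice, nor feeding or the hour of collection. Each frozen liver, lysed in cycloheximide, gave 2 libraries. The input library is RNA-seq of the lysate after nuclei and debris were spun out, and the other was made from ribosome-protected fragments (RPF), the pieces of mRNA shielded by ribosomes from micrococcal nuclease. Both kinds of RNA were depleted of rRNA. RPF divided by input is called translation efficiency (TE).

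Ammonia released from amino acids is toxic to the brain, and the liver converts it to urea for excretion. The first steps of the cycle run in mitochondria and the later steps in the cytosol, with ornithine and citrulline carried across the inner membrane. Hepatocytes around the portal vein make urea, while those around the central vein capture the ammonia that escapes as glutamine, so the zones of the lobule differ in these enzymes. Glucagon, glucocorticoids and protein intake are known to raise several of the transcripts.

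Input libraries held 8326325 to 11825643 counted read pairs, of which the 18S rRNA gene in the count table took 45.8% to 63.8%. Over the genes of the table, 2398804 to 5121304 read pairs were counted per input library and 4623826 to 9184242 reads per RPF library. The table gives these reads divided by a factor for each library, and such values are called normalized counts here. They carry no gene length, so they compare mice for a gene but do not compare genes. Mettl5 itself, the check of the genotype, had 58.4, 47.8 and 53.1 normalized RPF counts in WT mice of litters 1, 2 and 3 and 8.34, 5.53 and 9.56 in KO mice. Its RPF fell by 2.64 on the log2 scale (limma, SE 0.36, adjusted p = 0.00504), in 3 of 3 litters. The 11 hepatocyte markers, all of them detected, summed in input to between 368913 and 465889 normalized counts in WT and to between 355623 and 411739 in KO, whereas the 8 lymphocyte markers summed to 35.4 to 84.4 and 46.4 to 61.8. Markers of stellate cells and fibroblasts (11 genes) summed to 1278 to 1451 in WT and 1637 to 1689 in KO in input, and in RPF (10 genes) to 2781 to 3314 and 4311 to 4789, without overlap of the genotypes. Erythroid markers (6 genes) also did not overlap in input, at 626 to 813 in WT and 540 to 606 in KO, but did in RPF (4 genes), at 965 to 1673 and 784 to 1213. The part of these shifts in the members' values was not tested. In whole tissue, fewer cells of a type and less RNA per cell cannot be told apart.

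Sequences bear on 2 features of the members that return with their values. Otc and Nags mark the ends of the members' range of coding base composition, and their first 60 coding bases are shown with G or C at the third base of a codon in capitals. Otc lies at chrX:10252437-10252496 and Nags at chr11:102145587-102145646, both on the plus strand of GRCm38.p6, the mm10 build.
Otc: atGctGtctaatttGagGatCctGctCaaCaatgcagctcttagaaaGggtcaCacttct
Nags: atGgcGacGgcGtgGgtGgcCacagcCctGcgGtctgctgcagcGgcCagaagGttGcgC
In these stretches 10 of 20 Otc codons and 15 of 20 Nags codons ended in G or C. Over the longest coding sequence of each gene, GC content was 44.9% for Otc and 61.0% for Nags, against a median of 52.5% over the 8986 genes with a coding sequence.

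Ass1 and Glul, in contrast, have copies elsewhere in the genome that a short read cannot always be told from. The coding sequence of Ass1 and the processed pseudogene Gm5424 at chr10:62071123-62072361 differed at 6 of 1239 bases, and the longest identical run was 398 bases. Bases 421 to 480 of the coding sequence are shown, with the base that differs in capitals. The stretch of Ass1 lies at chr2:31488578-31488637 and that of Gm5424 at chr10:62071543-62071602, both on the plus strand.
Ass1: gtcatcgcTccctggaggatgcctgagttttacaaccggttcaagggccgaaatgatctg
Gm5424: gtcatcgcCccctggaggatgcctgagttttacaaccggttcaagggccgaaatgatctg
The stretch held 1 difference. Glul, at chr1:153902947-153903006, is shown beside the pseudogene Glns-ps1 at chr11:19720355-19720414, again on the plus strand and with 2 differing bases in capitals.
Glul: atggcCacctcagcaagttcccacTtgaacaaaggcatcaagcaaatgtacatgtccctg
Glns-ps1: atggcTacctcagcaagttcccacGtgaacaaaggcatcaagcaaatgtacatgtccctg
Of all 28-base windows of the Ass1 coding sequence, 86.1% occurred exactly elsewhere in the genome and 100% did so within 2 mismatches. For Glul the shares were 57.3% and 98.5%. None of the windows of the other 8 members occurred exactly elsewhere, and within 2 mismatches their shares were 0% to 2.39%. Input reads of more than 1 genomic location were dropped before the files were made. RPF reads were allowed 1 location, but whether that was sought in the genome or among transcripts, with or without the pseudogenes, is not given in the sources used here. Input, RPF and TE of Ass1 and Glul are therefore uncertain, and how much was lost or gained was not tested.

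None of the 10 members changed with genotype at an adjusted p of 0.05 in input, RPF or TE. In input, edgeR called 0 of 10057 genes (0%), 348 (3.46%) had an unadjusted p under 0.05 and DESeq2 called 1. In RPF, limma called 44 of 8994 genes (0.489%), and 293 with the litter as a replicate block, which likewise held none of the members. With that block, the 95% intervals of RPF did not cross 0 for Otc (-0.67 to -0.14, adjusted p = 0.0919), Ass1 (-0.82 to -0.16, adjusted p = 0.103) and Arg1 (-0.62 to -0.047, adjusted p = 0.204), and neither did that of Ass1 in TE (-0.97 to -0.033, adjusted p = 0.710). By the same fit, 1589 of 8994 genes had an unadjusted p under 0.05 in RPF and 617 in TE. When a trend with coding GC content was also removed, the RPF interval of Otc crossed 0 (-0.52 to 0.011, limma, adjusted p = 0.407). Those of Ass1 and Arg1 still did not. With each mouse as a block, which pairs its input and RPF, the TE interval of Ass1 did cross 0 (-1.06 to 0.063, limma, adjusted p = 0.644). TE values given without that block took input and RPF of a mouse as independent. Their SEs ran from 0.20 to 0.69 over the members, and with the block from 0.12 for Cps1 to 0.25 for Ass1. The interval of every member crossed 0 with the block, and the lowest adjusted p was 0.617 (limma), for Arg1. With no block, the number of genes called in RPF was 0 without KO mouse 2, 226 without KO mouse 1 and 9 to 28 without any of the other 4 mice, again with none of the members. In TE, limma called 0 of 8994 (0%), with 423 (4.7%) at an unadjusted p under 0.05, and edgeR on the whole reads also called 0. The median log2 fold change of the members, KO minus WT, was 0.06 in input by edgeR, with 8 values above 0 and 2 below, beside -0.00037 over all genes tested. By limma on the normalized counts, the scale of RPF and TE, the input median was 0.0039, with 5 values above 0 and 5 below, beside -0.025. In RPF the median was -0.15, with 4 values above 0 and 6 below, beside -0.03 over all genes. In TE it was -0.18, with 4 above and 6 below, beside -0.01. Among the members, 3 had the same sign of RPF change in all 3 litters, where 41.2% of all genes did, and 5 had the same sign of TE change, where 30.9% did.

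**Figure D1:**
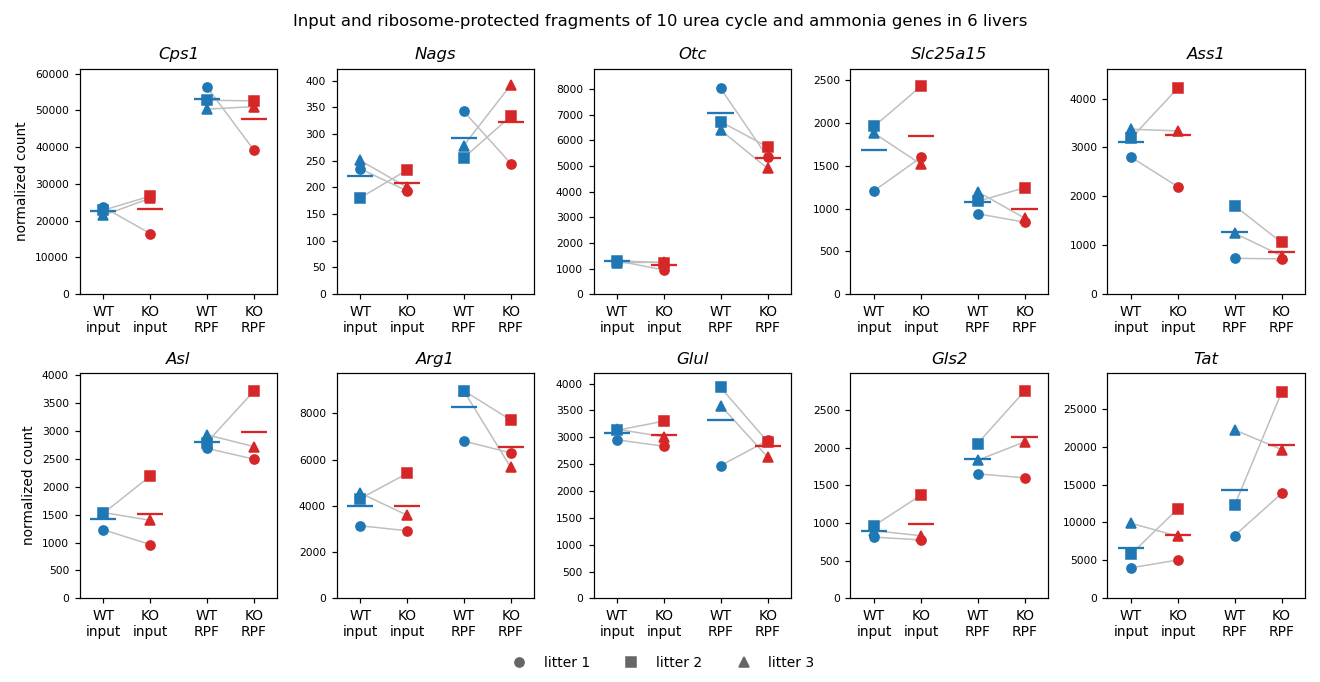
Normalized counts of the 10 members (vertical axes, linear from 0, a scale of its own in each panel) in input and RPF libraries of WT (blue) and KO (red) mice. Each symbol is a mouse, its shape gives the litter, grey lines join littermates and bars are means of 3. In the Otc panel the 3 KO mice have RPF of 4905 to 5743, all below the WT mice at 6403 to 8031, while the input values overlap.

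The mitochondrial entry to the cycle comprises carbamoyl-phosphate synthetase 1 (Cps1), which fixes ammonia, N-acetylglutamate synthase (Nags), which makes the activator that Cps1 needs, ornithine transcarbamylase (Otc), which forms citrulline, and the ornithine carrier Slc25a15. Of the members, Otc had the smallest p-value, in ribosome occupancy.

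Otc lies at chrX:10252305-10321024 on the plus strand. Its RPF was 8031, 6733 and 6403 normalized counts in WT mice of litters 1, 2 and 3 and 5343, 5743 and 4905 in their KO littermates. Every KO mouse was below every WT mouse, as in 12.9% of all genes tested, and the log2 differences within the litters, KO minus WT, were -0.59, -0.23 and -0.38. The log2 fold change was -0.40 ± 0.14 (SE, n = 3 per genotype, 95% interval -0.69 to -0.11), with an unadjusted p of 0.00985 and an adjusted p of 0.204 by limma. An unadjusted p under 0.05 was found for 13.4% of all genes. Otc input was 1301, 1299 and 1223 in WT and 937, 1231 and 1249 in KO. The groups overlapped in input, KO mouse 1 was lowest, and the log2 fold change was -0.14 ± 0.14 (edgeR, adjusted p = 0.999). Otc TE was 6.18, 5.18 and 5.23 in WT and 5.70, 4.67 and 3.93 in KO. Within litters TE was lower in KO in 3 of 3, but KO mouse 1 exceeded WT mice 2 and 3, and the log2 fold change of -0.23 ± 0.20 did not pass (limma, 95% interval -0.64 to 0.19, adjusted p = 0.998).

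Cps1, at chr1:67123026-67231259 on the plus strand, is among the most abundant transcripts of the liver and took 0.489% to 0.652% of the reads of the table in input and 0.816% to 1.19% in RPF. Its input was 23690, 22817 and 21403 in WT and 16479, 26662 and 26099 in KO. KO mouse 1 was lowest and the other two KO mice were the highest, so the groups overlapped and the log2 fold change was 0.05 ± 0.18 (edgeR, adjusted p = 0.999). Cps1 RPF was 56436, 52753 and 50307 in WT and 39211, 52558 and 51009 in KO. Only KO mouse 1 lay outside the WT range, and the log2 fold change was -0.17 ± 0.17 (limma, adjusted p = 0.711). The TE of Cps1 was 2.38, 2.31 and 2.35 in WT and 2.38, 1.97 and 1.95 in KO, a log2 fold change of -0.17 ± 0.24 (adjusted p = 0.998). The lower KO value came from mice 2 and 3, while KO mouse 1 was at the level of its WT littermate (log2 difference -0.0017).

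Nags lies at chr11:102145513-102149477 on the plus strand and had the lowest counts of the members, 115 to 294 read pairs per input library. Nags input was 235, 180.2 and 250.4 in WT and 193, 233 and 199.9 in KO, a log2 fold change of -0.07 ± 0.17 (edgeR, adjusted p = 0.999). Nags RPF was 342, 255 and 278 in WT and 245, 333 and 392 in KO. Litter 1 was lower in KO and litters 2 and 3 higher, and the fold change of 0.13 ± 0.18 did not pass (limma, adjusted p = 0.804). Nags TE was 1.46, 1.42 and 1.11 in WT and 1.27, 1.43 and 1.96 in KO, with the highest value in KO mouse 3 and overlap of the groups (log2 fold change 0.21 ± 0.26, adjusted p = 0.998).

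Slc25a15, at chr8:22375551-22398597 on the minus strand, had input of 1209, 1962 and 1883 in WT and 1600, 2434 and 1519 in KO. Its RPF was 939, 1085 and 1199 in WT and 842, 1245 and 889 in KO. The groups overlapped in both, with log2 fold changes of 0.16 ± 0.23 in input (edgeR, adjusted p = 0.999) and -0.13 ± 0.22 in RPF (limma, adjusted p = 0.840). Slc25a15 TE was 0.777, 0.553 and 0.637 in WT and 0.526, 0.512 and 0.585 in KO. It was lower in KO in 3 of 3 litters, but KO mouse 3 exceeded WT mouse 2 and the change of -0.27 ± 0.30 did not pass (adjusted p = 0.998).

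In the cytosol, argininosuccinate synthase (Ass1) joins citrulline to aspartate, argininosuccinate lyase (Asl) releases arginine and fumarate, and arginase 1 (Arg1) splits arginine into urea and ornithine. Their RPF log2 fold changes were -0.49 for Ass1, -0.33 for Arg1 and 0.07 for Asl, and none passed. RPF of Ass1 and Arg1 was lower in KO in 3 of 3 litters, where 41.2% of all genes had the same sign in 3 litters. The difference of Ass1 in litter 1 was only -0.02. RPF of Asl was lower in 2 of 3 litters, although its fold change was above 0.

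Ass1 lies at chr2:31470207-31520672 on the plus strand. Its input was 2801, 3186 and 3372 in WT and 2196, 4219 and 3339 in KO, with the lowest and the highest values both in KO (log2 fold change 0.08 ± 0.20, edgeR, adjusted p = 0.999). Ass1 RPF was 732, 1808 and 1246 in WT and 722, 1056 and 785 in KO. WT mouse 1 was at the level of the KO mice, so the groups overlapped, and the log2 fold change of -0.49 ± 0.32 was the lowest among the members but did not pass (limma, 95% interval -1.19 to 0.22, adjusted p = 0.549). It was -0.83 without WT mouse 1 and -0.18 without WT mouse 2. Ass1 TE was 0.261, 0.567 and 0.369 in WT and 0.329, 0.250 and 0.235 in KO (log2 fold change -0.50 ± 0.45, adjusted p = 0.998). The input values rest on the reads that could be told from those of Gm5424, and for RPF this is not known. Gm5424 itself had 97, 131 and 145 input read pairs in WT and 213, 188 and 113 in KO. That was 5.41% to 6.44% of the Ass1 count in each library, and Gm5424 had no row in the table of RPF.

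Asl, at chr5:130011258-130029247 on the minus strand, had input of 1231, 1522 and 1537 in WT and 963, 2190 and 1399 in KO. Its RPF was 2687, 2790 and 2930 in WT and 2494, 3709 and 2719 in KO. KO mouse 2 was highest in both, KO mouse 1 was lowest in both, and the log2 fold changes were 0.10 ± 0.28 in input (edgeR, adjusted p = 0.999) and 0.07 ± 0.24 in RPF (limma, adjusted p = 0.929). Asl TE was 2.18, 1.83 and 1.91 in WT and 2.59, 1.69 and 1.94 in KO, spanning the WT range on both sides (log2 fold change 0.05 ± 0.33, adjusted p = 0.998).

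Arg1, at chr10:24915221-24927484 on the minus strand, had input of 3140, 4313 and 4556 in WT and 2924, 5404 and 3595 in KO, a log2 fold change of 0.01 ± 0.23 (edgeR, adjusted p = 0.999). Arg1 RPF was 6804, 8987 and 8978 in WT and 6293, 7714 and 5666 in KO. Each KO mouse was below its littermate, with log2 differences of -0.11, -0.22 and -0.66, but KO mouse 2 exceeded WT mouse 1, and the change of -0.33 ± 0.21 did not pass (limma, 95% interval -0.78 to 0.11, adjusted p = 0.513). Arg1 TE was 2.17, 2.08 and 1.97 in WT and 2.15, 1.43 and 1.58 in KO, lower in KO in 3 of 3 litters (log2 fold change -0.29 ± 0.30, adjusted p = 0.998).

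Of the glutamine enzymes, liver-type glutaminase (Gls2) releases ammonia from glutamine in periportal cells, and glutamine synthetase (Glul) consumes it in the cells next to the central vein. Their RPF values lay on opposite sides of 0, at 0.18 ± 0.21 for Gls2 (limma, adjusted p = 0.753) and -0.21 ± 0.15 for Glul (adjusted p = 0.580), and neither passed. These SEs rest also on the spread of input, which for Glul was narrower than that of RPF. Gls2, at chr10:128194457-128210004 on the plus strand, had RPF of 1653, 2055 and 1832 in WT and 1599, 2752 and 2078 in KO, and input of 813, 964 and 898 in WT and 776, 1372 and 831 in KO. KO mouse 2 was the highest of the 6 in both, and the log2 fold change in input was 0.18 ± 0.20 (edgeR, adjusted p = 0.999). Gls2 TE was 2.03, 2.13 and 2.04 in WT and 2.06, 2.01 and 2.50 in KO (log2 fold change 0.07 ± 0.30, adjusted p = 0.998).

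Glul lies at chr1:153899944-153909723 on the plus strand and varied least among the members in input, at 2953, 3132 and 3150 in WT and 2832, 3302 and 3009 in KO. The highest of the 6 mice was 1.13 times the lowest, and the log2 fold change was 0.01 ± 0.13 (edgeR, adjusted p = 0.999). Glul RPF varied more, at 2474, 3928 and 3591 in WT and 2942, 2916 and 2631 in KO. WT mouse 1 was the lowest of the 6, the other two WT mice were the highest, and KO was lower in 2 of 3 litters. Glul TE was 0.838, 1.25 and 1.14 in WT and 1.04, 0.883 and 0.874 in KO (log2 fold change -0.19 ± 0.21, limma, adjusted p = 0.998). Its pseudogene Glns-ps1 had 7 to 18 input read pairs per library and no row in the table.

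Tyrosine aminotransferase (Tat) passes the amino group of tyrosine on and is a classical target of glucocorticoids. It differed most between mice. Tat, at chr8:109990437-109999803 on the plus strand, had input of 4028, 5829 and 9901 in WT and 5057, 11826 and 8173 in KO, and RPF of 8264, 12236 and 22197 in WT and 13823, 27143 and 19605 in KO. The highest RPF was 3.28 times the lowest, both genotypes held low and high mice, and the fold changes of 0.36 ± 0.47 in input (edgeR, adjusted p = 0.999) and 0.57 ± 0.49 in RPF (limma, 95% interval -0.55 to 1.69, adjusted p = 0.673) did not pass. The RPF change was 0.24 without WT mouse 1 and 0.95 without WT mouse 3. Tat TE varied far less, at 2.05, 2.10 and 2.24 in WT and 2.73, 2.30 and 2.40 in KO. Every KO mouse was above every WT mouse, as in 6.09% of all genes, and KO was higher by 0.41, 0.13 and 0.10 on the log2 scale within the litters. The TE change was 0.21 ± 0.69 (limma, adjusted p = 0.998) where input and RPF were taken as independent, and 0.21 ± 0.13 with each mouse as a block (95% interval -0.05 to 0.48, adjusted p = 0.682).

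**Figure D2:**
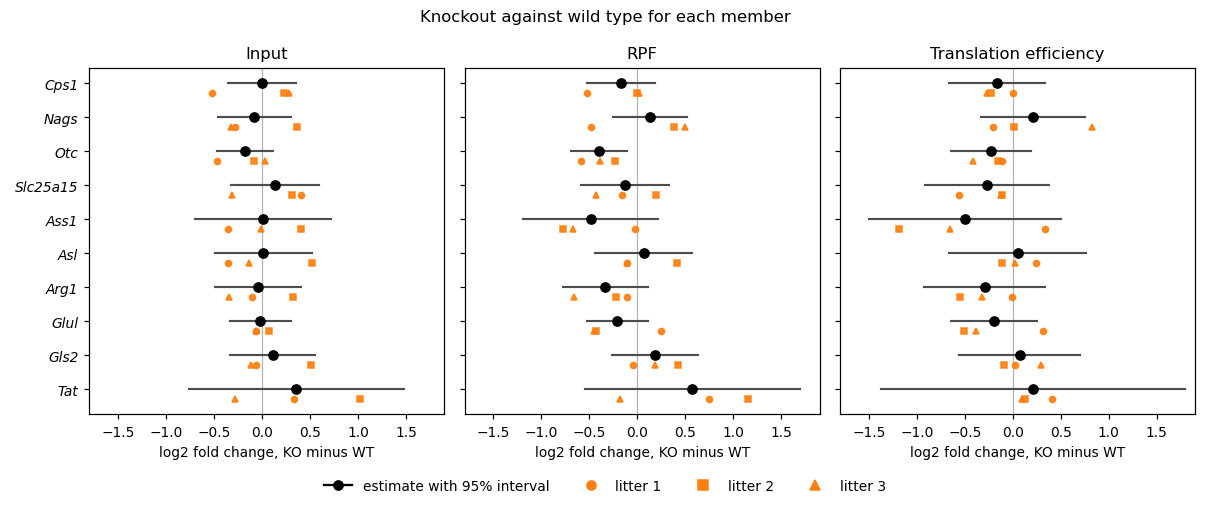
Log2 fold changes, KO minus WT (horizontal axes), of the 10 members in input, RPF and TE on the scale of the normalized table. Black points are limma estimates with 95% intervals, and orange symbols give the difference within each litter. In RPF the interval of Otc, -0.69 to -0.11, is the only member's interval that does not cross 0, before adjustment over genes and without the litter block.

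A difference between mice ran through most members in input and was not aligned with genotype. KO mouse 2 had the highest input of the 6 mice in 8 of 10 members, whereas it was highest in 17.7% of all genes, and KO mouse 1 had the lowest input in 7 of 10, against 18.4% of all genes. The median deviation of the members from the mean of the 6 mice was -0.17, 0.05 and 0.11 on the log2 scale in WT mice 1, 2 and 3 and -0.39, 0.45 and -0.03 in KO mice 1, 2 and 3, while the median of all genes lay between -0.02 and 0.02. The median of periportal hepatocyte markers (18 of 19 measured, 5 of them members) moved in the same direction, at -0.33 in KO mouse 1 and 0.26 in KO mouse 2. Not every marker did so, as Cdh1, Ctsc, G6pc and Igf1 were higher in KO mouse 1 than in KO mouse 2. Cyp2f2 input, in counts scaled to library size (CPM), was 233, 278 and 264 in WT mice 1, 2 and 3. It was 176 in KO mouse 1 and 172 in KO mouse 2, so it did not rise in KO mouse 2. Enzymes of amino acid breakdown, a list not chosen by zone, were at -0.19 and 0.20. Pericentral markers (19 of 20 measured) were at -0.01 and 0.04 in these mice. Individual members reached 0.76 for Tat, 0.62 for Asl and 0.57 for Gls2 in KO mouse 2 and -0.57 for Asl and -0.51 for Ass1 in KO mouse 1. Of the 8 members whose input was higher in KO over all mice by edgeR, 7 were below 0 when KO mouse 2 was left out. In RPF the members' median was -0.25 in KO mouse 1 and 0.11 in KO mouse 2. The input library of KO mouse 1 was the deepest and held the smallest share of 18S counts, 45.8%, and the part of depth, of lobular zone and of feeding in these differences was not tested.

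**Figure D3:**
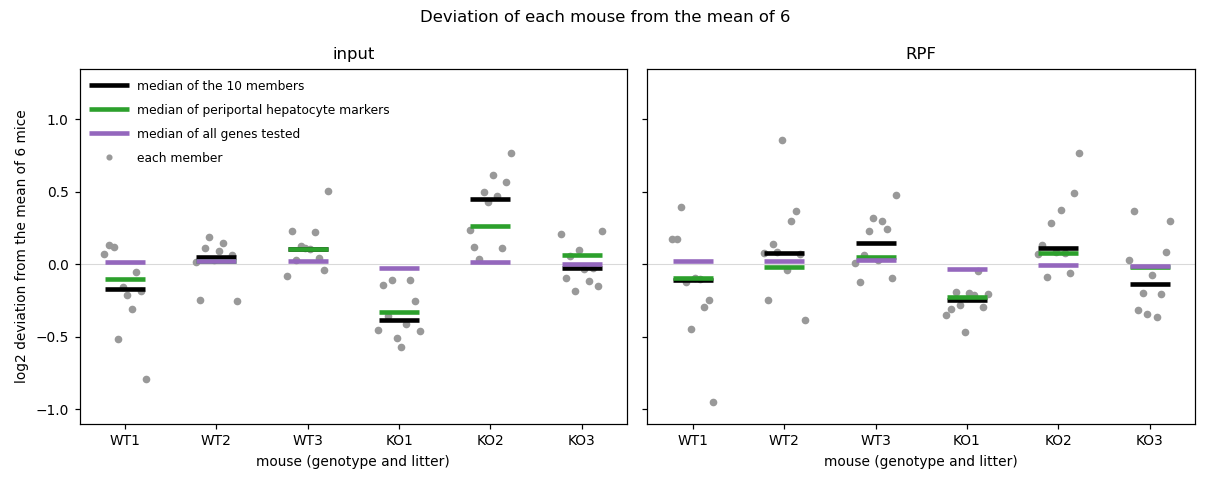
Log2 deviation of each mouse from the mean of the 6 mice (vertical axes) in input and RPF. Grey points are the 10 members, and bars are medians of the members, of periportal markers and of all genes tested. In input the members' median lies at -0.39 in KO mouse 1 and 0.45 in KO mouse 2, with all genes near 0 in every mouse.

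To compare the genes with each other, levels were taken per kb. Input normalized counts per kb of gene model in WT were highest for Cps1, at 4075 ± 208 (SD, n = 3), followed by Tat at 2738 ± 1251, Arg1 at 1797 ± 340, Ass1 at 1292 ± 121 and Glul at 814 ± 28.7. Otc (300.5 ± 10.4), Slc25a15 (299.3 ± 73.5), Asl (296 ± 35.7) and Gls2 (257 ± 21.8) formed a group in which neighbours overlapped, and Nags was lowest at 78.2 ± 13.0. Cps1 overlapped with Tat, and Tat with Arg1. Every member was above the median gene, which had 17.3 per kb in WT, and 5 of them were in the top 2% of the 8986 genes. RPF per kb of coding sequence ran from 11807 ± 685 for Cps1 through 10427 ± 5258 for Tat, 8494 ± 1294 for Arg1 and 6625 ± 808 for Otc to 184 ± 28.6 for Nags, with neighbours overlapping from Cps1 to Otc. Asl (2009 ± 87.4) and Glul (2969 ± 679) lay between, and Slc25a15 (1186 ± 144), Gls2 (1021 ± 111) and Ass1 (1018 ± 434) could not be ranked against their neighbours.

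Otc and Ass1 stood at opposite ends of the ratio of RPF to input, with and without gene length. Without length, which varies between the genes, in WT the ratio was 5.53 ± 0.56 for Otc (SD, n = 3), the highest among the members and rank 44 of 8986 genes, with a median gene at 1.10. Ass1 was lowest at 0.399 ± 0.155, a value that only 11.1% of genes did not exceed. Between them stood Cps1 (2.35 ± 0.035), Tat (2.13 ± 0.099), Arg1 (2.07 ± 0.098), Gls2 (2.07 ± 0.055), Asl (1.97 ± 0.18), Nags (1.33 ± 0.19), Glul (1.08 ± 0.22) and Slc25a15 (0.656 ± 0.113). From Tat to Asl, from Nags to Glul and from Slc25a15 to Ass1 neighbours overlapped. Taken per kb, with RPF over the coding sequence and input over the gene model, the ratio was 22.0 ± 2.23 for Otc, above Asl at 6.84 ± 0.64 with no overlap, and 0.778 ± 0.302 for Ass1, below Nags at 2.38 ± 0.34 with no overlap. The order between them was another one than without length. Arg1 (4.75 ± 0.23), Slc25a15 (4.07 ± 0.70), Gls2 (3.97 ± 0.11), Tat (3.75 ± 0.17), Glul (3.63 ± 0.73) and Cps1 (2.90 ± 0.043) followed Asl, with overlap of neighbours from Arg1 to Cps1. Cps1, which came next to Otc without length, was thus at rank 4938 of 8986 genes per kb and below the median gene. The gene models used for input include every annotated exon, which was 4241 bases for Otc beside a coding sequence of 1065 bases. For Ass1, 86.1% of 28-base coding windows occur elsewhere exactly, as given above, and its share in the low ratio was not tested. The high ratio of Otc and the low ratio of Ass1 were present in both genotypes, at 4.77 ± 0.89 and 0.271 ± 0.050 in KO.

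**Figure D4:**
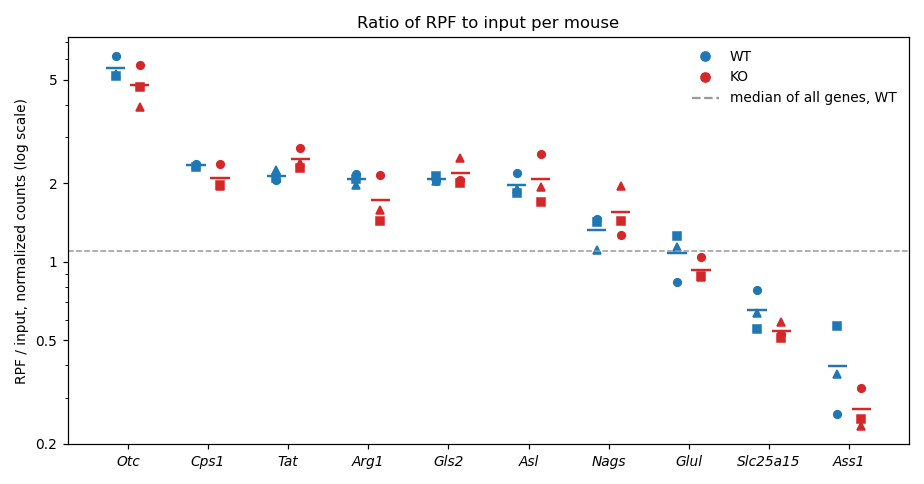
RPF divided by input, in normalized counts (vertical axis, log scale), for each member in WT (blue) and KO (red) mice, ordered by the WT mean. Each symbol is a mouse, with circles, squares and triangles for litters 1, 2 and 3, bars are means of 3, and the dashed line is the median gene in WT at 1.10. Gene length is not taken out, and per kb the order of the genes between the ends differs. Otc lies at 3.93 or higher and Ass1 at 0.567 or lower in all 6 mice.

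The RPF changes of the members were compared with the base composition of their coding sequences, because RPF changes ran with GC content over all genes (Spearman rho 0.46 across 8986 genes, which share the libraries and are not independent replicates). Genes with 42.5% to 45% GC had a median RPF log2 fold change of -0.24, and genes with 60% to 62.5% GC had 0.24. Otc (44.9% GC) had -0.40 and Nags (61.0%) had 0.13, which differed from these medians by -0.16 and -0.11. Cps1 (49.0%, -0.17), Slc25a15 (51.9%, -0.13), Asl (56.5%, 0.07) and Gls2 (56.0%, 0.18) differed from the median of their bin of 2.5 points by -0.07 to 0.11. Tat (53.2%, 0.57), Ass1 (53.8%, -0.49), Arg1 (51.3%, -0.33) and Glul (54.1%, -0.21) differed from it by 0.57, -0.49, -0.27 and -0.21. Over the 10 members rho was 0.50. When a smooth trend with coding GC was taken out of every library, the change of Otc was -0.25 (limma, adjusted p = 0.580), that of Cps1 -0.10 and that of Nags -0.05, whereas Tat was at 0.56 and Ass1 at -0.51. The source of the trend was not tested.

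**Figure D5:**
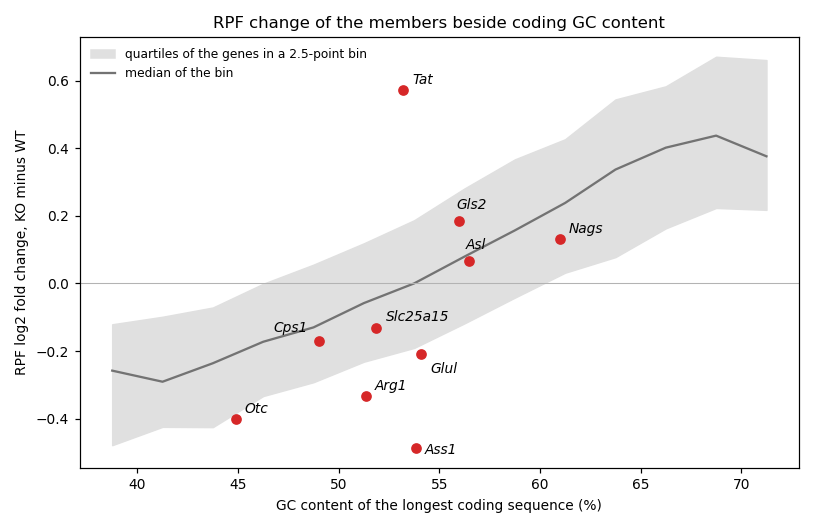
RPF log2 fold change, KO minus WT (vertical axis), of the 10 members (red) beside the GC content of the coding sequence (horizontal axis, percent). The line and grey band give the median and the quartiles of all genes in bins of 2.5 points with at least 20 genes. Otc and Cps1 lie low on the left and Gls2, Asl and Nags higher on the right, while Tat at 0.57 and Ass1 at -0.49 lie farthest from the line.

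The transporters and enzymes that feed the cycle were read beside the members. Of 23 partners, 19 were tested, and none passed in input, RPF or TE. Slc1a2, the glutamate transporter of pericentral hepatocytes, had the smallest p of the list in RPF, at 538, 864 and 727 in WT and 483, 385 and 285 in KO (log2 fold change -0.89 ± 0.32, limma, adjusted p = 0.273). Every KO mouse was below every WT mouse in RPF of Slc1a2, as in 12.9% of all genes, and in input its change was -0.93 ± 0.37 (edgeR, adjusted p = 0.999). The aminotransferases that move nitrogen to and from glutamate lay on both sides of 0. Gpt, which makes pyruvate from alanine, had RPF of 1074, 1183 and 1119 in WT and 1213, 1655 and 1602 in KO, with every KO mouse above every WT mouse, as in 6.97% of all genes (log2 fold change 0.39 ± 0.16, limma, adjusted p = 0.289). Got2, the mitochondrial aspartate aminotransferase, had RPF of 1084, 1189 and 1203 in WT and 796, 1087 and 813 in KO (log2 fold change -0.38 ± 0.15, adjusted p = 0.292) and the smallest p of the list in TE, at -0.45 ± 0.22 (adjusted p = 0.998). Gpt followed in TE at 0.36 ± 0.22 (adjusted p = 0.998), with every KO mouse above every WT mouse, as in 6.09% of all genes. Other genes with the smallest p-values were the cytosolic Got1 in input (0.42 ± 0.23), the deacetylase Sirt3 in input (0.23 ± 0.16) and the aspartate-glutamate carrier Slc25a13 in TE (-0.23 ± 0.19).

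Enzymes of amino acid breakdown, the source of the ammonia, gave 50 tested genes of 51, of which none passed. In RPF 12 of the 50 had an unadjusted p under 0.05, 3 higher and 9 lower in KO, beside 13.4% of all genes. Agxt, which transfers the amino group of alanine to glyoxylate, had RPF of 1274, 1081 and 1083 in WT and 1505, 1802 and 1721 in KO. Every KO mouse was above every WT mouse, as in 6.97% of all genes (log2 fold change 0.55 ± 0.14, limma, adjusted p = 0.0788). Agxt input was higher by 0.44 ± 0.15 (edgeR, adjusted p = 0.999). Lower values were found in RPF for Gstz1 of tyrosine breakdown (-0.44 ± 0.13) and Dld, a dehydrogenase subunit shared by several complexes (-0.41 ± 0.13), each with an adjusted p of 0.140. In TE the smallest p-values belonged to Dld (-0.48 ± 0.18), Kynu of tryptophan breakdown (-0.53 ± 0.22) and Pcbd1 (-0.44 ± 0.21), and in input, beside Agxt, to Acadsb (-0.34 ± 0.14) and the proline pathway enzyme Aldh4a1 (0.33 ± 0.15).

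None of the 26 regulators of these genes passed either. In RPF the smallest p-values belonged to Crebl2 (0.69 ± 0.20, limma, adjusted p = 0.118), Ctnnb1, the beta-catenin that sets the pericentral program (-0.35 ± 0.13, adjusted p = 0.255), and Ppara, a nuclear receptor of fasting (0.27 ± 0.14, adjusted p = 0.425). In TE they were Crebl2 (0.57 ± 0.28), Cebpa (0.37 ± 0.25) and Ppara (0.27 ± 0.20). TE values were above 0 for 21 of the 26, with a median of 0.19, beside 48.7% and -0.01 over all genes. In input the smallest p-values belonged to Sp1 (0.39 ± 0.17), Axin2 (1.03 ± 0.46, at 0.352 to 3.01 CPM, counts scaled to library size) and Cebpa (-0.25 ± 0.13), each with an adjusted p of 0.999 by edgeR.

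Markers of the lobular zones gave values on both sides of 0. Among the 18 periportal genes tested in RPF, 5 of them members, 1 higher and 3 lower had an unadjusted p under 0.05, beside 13.4% of all genes. Cyp2f2 had RPF of 5793, 6784 and 6113 in WT and 4118, 3891 and 4557 in KO (log2 fold change -0.57 ± 0.15, limma, adjusted p = 0.0891), while Aldh1b1 was at 0.50 ± 0.17 (adjusted p = 0.184). In input these genes were at -0.38 ± 0.16 and 0.75 ± 0.18 (edgeR, adjusted p = 0.801 for Aldh1b1). Among the 19 pericentral genes, with Glul as the member, 1 higher and 3 lower had an unadjusted p under 0.05 in RPF, beside the same 13.4% of all genes. The smallest p-values belonged to Rgn (-0.55 ± 0.17, limma, adjusted p = 0.140) and Mup17 (-1.33 ± 0.47, adjusted p = 0.263), a member of a family with near-identical copies whose counts are uncertain. In TE, Serpina1c among periportal genes was at -0.25 ± 0.25 and Rgn among pericentral genes at -0.47 ± 0.24, and neither passed (limma, each with an adjusted p of 0.998).

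Genes of fasting and glucocorticoid response, to which Tat belongs, had a median RPF log2 fold change of 0.44 over 20 tested genes, with 15 above 0 and 5 below, beside -0.03 over all genes, and none passed. The insulin receptor substrate Irs2 had RPF of 104, 87.9 and 220.2 in WT and 389, 222 and 447 in KO (log2 fold change 1.41 ± 0.50, limma, adjusted p = 0.274), and Mt1 had 11.3, 22.2 and 24.8 in WT and 77.2, 33.8 and 25.8 in KO (1.10 ± 0.49, adjusted p = 0.338). In input Irs2 was at 1.16 ± 0.51 and Igfbp1 at 1.27 ± 0.67, and in TE Fkbp5 was at 0.28 ± 0.36. The median deviation of this list from the mean of the 6 mice was lowest in WT mouse 1, at -0.44 in input and -0.79 in RPF, the mouse in which Tat was also lowest.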

How the data were processed

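Input values were deposited as counts of read pairs. After trimming with BBDuk, the authors ran STAR 2.7.3a against mm10, discarded reads without a unique place and counted the rest by strand over exons with featureCounts (1.6.0 per the labels, 2.0.3 per the file headers). For RPF, the authors used read 1, removed rRNA and mapped with RiboToolkit (mm10) to a single location. Whether that was in the genome or among transcripts is not given in the sources used here. The deposited table holds a signal per library, reads divided by a factor, although it was described as RPKM. In all 12 columns, 100% of values came to whole reads within 0.01 reads, and input reads equalled the counts in 100% of genes. The table's columns of the authors' fold changes, p-values and adjusted p-values were not used.

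Groups came from the labels, and 0 columns lacked a sample. Input was tested with edgeR 4.0.16 (TMM, filterByExpr, robust quasi-likelihood, with the SE taken as the log2 fold change over the square root of F). For RPF and TE, limma 3.58.1 was used (trend, robust) on log2(value + 1), which understates changes of low genes, over genes with means of at least 10 in input and in RPF, with 4 group means. In this model input and RPF of a gene shared an estimate of spread. The SE and interval of RPF thus rest also on the spread of input, not on RPF alone. TE took input and RPF of a mouse as independent, except with the mouse block. The planned test assumed a normalized unit, and edgeR on the recovered whole reads was run beside it, calling 66 genes in RPF. Tests were two-sided, with Benjamini-Hochberg adjustment over all genes. Scripts were tested on simulated data.

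The members, gene lists, tests and alternatives were chosen with earlier results of these data known. Beside the members, the genes with the smallest p-values of each list in each comparison are named (3 for partners, amino acid breakdown and regulators, 2 for zonal and fasting lists). Some genes that this rule names are not reported here. Per the labels, mice of the same number are littermates and so are paired. Deviations of littermates correlated at 0.082 to 0.127 in input and 0.144 to 0.242 in RPF across genes. Coding sequences are the longest of each gene in GENCODE vM21, and windows were searched on 22 chromosomes of GRCm38.p6. Alternatives tried were DESeq2 1.42.0, RLE size factors, pseudocounts of 0.1 and 5, no or stricter filters, columns centred on their medians, litter and mouse blocks, GC trend removal, RPF columns alone and leaving out each mouse.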

Additional observations from a re-analysis of the deposited data

How the results depend on the processing

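None of the 10 members passed an adjusted p of 0.05 in any of the 43 alternative fits, where the lowest adjusted p was 0.0919, for Otc in RPF with the litter as a replicate block. The RPF change of Otc ranged from -0.47 to -0.25 and its adjusted p from 0.0919 to 0.613. Of 430 recomputed fold changes of members, 406 kept their direction. With the replicate block, 293 genes were called in RPF and 2 in input, and together with the removal of the GC trend 99 in RPF. Removal of the GC trend alone, or RPF columns alone, gave 23. In input, DESeq2 called 1 gene and testing without a count filter 30. Leaving out each mouse gave 0 to 21 calls in input and 0 to 226 in RPF. The causes were not tested.

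Directions turned for values close to 0. With the GC trend removed, with or without the replicate block, the RPF changes of Asl and Nags were -0.019 and -0.051 and the TE change of Asl was -0.023. The input change of Arg1 was -0.015 with the replicate block. When each mouse was left out, input changes ranged from -0.061 to 0.24 for Cps1, -0.15 to 0.30 for Ass1, -0.25 to 0.35 for Asl, -0.27 to 0.19 for Arg1, -0.20 to 0.032 for Nags, -0.045 to 0.055 for Glul, -0.12 to 0.32 for Gls2 and -0.079 to 0.29 for Slc25a15. RPF changes ranged from -0.10 to 0.18 for Asl, -0.013 to 0.38 for Gls2, -0.020 to 0.32 for Nags and, without turning, -0.25 to -0.037 for Cps1, -0.41 to -0.077 for Glul, -0.31 to -0.023 for Slc25a15, -0.83 to -0.18 for Ass1 and 0.24 to 0.95 for Tat. TE changes ranged from -0.12 to 0.19 for Asl and -0.024 to 0.13 for Gls2. Input levels per kb of coding sequence put Glul before Ass1 and Slc25a15 before Otc. With 3 mice per genotype, only changes well beyond the mouse-to-mouse spread could pass.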

Other observations

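Input of 3 further genes of the fasting and glucocorticoid list, chosen after their values were seen, ran beside Tat across the 6 mice. In WT mice 1, 2 and 3 and KO mice 1, 2 and 3, the log2 deviation of Tat input from the mean of the 6 was -0.79, -0.26, 0.51, -0.46, 0.76 and 0.23. For Tsc22d3, a glucocorticoid-induced leucine zipper protein, it was -1.20, -0.12, 0.66, -0.51, 0.95 and 0.21. For Pck1, the enzyme that commits carbon to gluconeogenesis, it was -0.73, -0.07, 0.47, -0.48, 0.42 and 0.40, and for Sds, which deaminates serine, -0.27, -0.06, 0.25, -0.63, 0.64 and 0.08. Other genes of the list had another order. Dusp1 was highest in WT mouse 1 (1.09), and Igfbp1 was highest in KO mouse 1 (1.56). The list as a whole was not tested for this pattern.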
